A study of Mus musculus with 4 samples.

Results

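The genes described here are 9 factors that mark or direct the stem cells and neuronal progenitors of the olfactory epithelium, namely *Trp63*, *Icam1*, *Kit*, *Sox2*, *Pax6*, *Neurog1*, *Neurod1*, *Hes6* and *Ezh2*. They were found through the RefSeq accession that the array gives for each non-control probe, which led to 18 of 56605 probes and to 9 of the 45616 genes tested. The samples were nasal mucosa, labelled as olfactory epithelium, of male C57BL/6J mice with no genetic change or treatment named. Young adult mice were 8 weeks old and aged mice were 16 months old. Each age had 2 arrays, and each array carried the RNA of a pool of 5 mice. The study's methods count fewer mice per age than separate pools would need, so the pools of one age may share mice, and the P-values measure only the spread between these samples. A description in the labels that names silica and lung fits neither the titles nor the protocol and was not used.

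The olfactory epithelium replaces its neurons throughout life. Horizontal basal cells lie on the basal lamina as a reserve of stem cells, and globose basal cells above them divide and give rise to neuronal precursors, which become immature and then mature olfactory receptor neurons (ORNs). *Trp63* encodes p63, the transcription factor that holds horizontal basal cells in reserve, and *Icam1* encodes an adhesion molecule on their surface. *Kit* encodes the receptor for stem cell factor and marks globose basal cells. *Sox2* and *Pax6* encode transcription factors of basal and sustentacular cells, *Neurog1* and *Neurod1* encode helix-loop-helix factors that act in sequence in neuronal precursors, *Hes6* encodes a Hes family protein that favours neuronal differentiation, and *Ezh2* encodes the enzyme of polycomb repressive complex 2 (PRC2), which methylates histone H3.

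The tissue was checked through its markers. *Omp*, the marker of mature ORNs, had normalized intensities of 300826 and 286061 in young adult samples, against 317836 and 332591 in aged samples. No gene of the lists of markers for mature ORNs, sustentacular cells and Bowman's glands was below background on every array. The mucosa also held other cells, and 1 of the 10 mature ORN markers (*Stoml3*, log2 fold change 0.43) and 1 of the 9 sustentacular markers (*Cyp1a2*, 0.54) rose in aged mice. Among the pituitary hormone and transcription factor genes, 3 of 13 rose (*Prl*, *Gh* and *Pitx1*), and their summed intensity was 6342 to 6682 in young adult and 16740 to 17702 in aged samples. The part of that tissue in any result below was not tested. In RNA of a whole mucosa, fewer cells of a type and less RNA per cell cannot be told apart.

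Of the 9 genes, *Kit* passed the test. The promoters of *Kit*, as the gene that was called, and of *Pax6*, which was not called though a probe of it was, are given here. Each is the stretch around a transcription start that RefSeq's table holds, 300 bases long with the start 50 bases from its end, 5′ to 3′, in the GRCm38.p6 assembly of RefSeq, and capitals mark the motifs found.
Kit, chr5:75574737-75575036, plus strand: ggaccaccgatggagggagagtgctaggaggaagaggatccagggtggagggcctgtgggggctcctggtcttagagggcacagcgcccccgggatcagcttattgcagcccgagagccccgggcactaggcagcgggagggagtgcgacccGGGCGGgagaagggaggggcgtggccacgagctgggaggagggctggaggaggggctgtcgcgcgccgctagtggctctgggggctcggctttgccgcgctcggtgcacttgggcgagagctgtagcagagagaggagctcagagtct
Pax6, upstream start, chr2:105668646-105668945, plus strand: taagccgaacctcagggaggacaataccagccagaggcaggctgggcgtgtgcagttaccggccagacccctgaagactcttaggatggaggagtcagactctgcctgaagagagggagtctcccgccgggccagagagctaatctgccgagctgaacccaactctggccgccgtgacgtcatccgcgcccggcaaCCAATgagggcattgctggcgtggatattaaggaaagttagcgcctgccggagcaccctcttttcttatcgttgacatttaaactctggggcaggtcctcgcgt
Pax6, downstream start, chr2:105682213-105682512, plus strand: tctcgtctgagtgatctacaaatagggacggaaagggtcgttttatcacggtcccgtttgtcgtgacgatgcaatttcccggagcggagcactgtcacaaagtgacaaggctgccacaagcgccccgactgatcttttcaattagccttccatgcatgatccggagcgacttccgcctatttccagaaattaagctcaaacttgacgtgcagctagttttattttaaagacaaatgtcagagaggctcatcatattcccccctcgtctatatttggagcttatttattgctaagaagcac

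RefSeq gave 11 such promoters for 8 of the 9 genes, and 5 motifs were searched on both strands. The E-box CAGCTG was in 2 of the 11, both of *Hes6*, and in 16.3% of all 32851 promoters. The E-box CAGATG was in 0 of the 11 and in 17.2% of all promoters. TATAAA was in 2 of the 11, of *Icam1* and *Hes6*, and in 13.6% of all. The GC box GGGCGG and the CCAAT box CCAAT were added to the search after the member promoters had been read, so their counts were not independent of that reading. GGGCGG was in 7 of the 11 and in 35.7% of all. *Kit* had 2 of the 11 entries, with starts 4 bases apart and the same GGGCGG in both, and with *Kit* counted once the motif was in 6 of 10. The CCAAT box was in 5 of the 11 and in 37.4% of all. No match overlapped a match of another motif. The *Kit* promoter held GGGCGG 98 bases before its start and was 69.0% G and C, against a median of 52.7% over all promoters. The upstream *Pax6* promoter held CCAAT 54 bases before its start, and the downstream one held none of the 5 motifs.

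A gene was called where limma gave P below 0.05 together with an FDR (Benjamini-Hochberg, adjusted over every gene tested) below 0.25. By this rule 1 of the 9 genes fell and 0 rose, where 3.98% of all genes tested were called, 2.33% lower and 1.65% higher. The count of the members at an unadjusted P below 0.05 was also 1, and 13.1% of all genes had such a P, which is the share to set beside each such count below. The arrays of the ages did not overlap for 7 of the 9 genes, 2 higher and 5 lower in aged mice, and this separation was seen in 46.0% of all genes, 24.2% higher and 21.8% lower. The median log2 fold change of the 9 genes was -0.10, beside 0.01 over all genes. Other processing moved the calls over all genes from 754 higher and 1063 lower. They were 2107 and 2478 with an offset of 50, and 2030 and 2346 on the quantile normalized processed signal. With an intensity trend they were 3607 and 3517. With only probes well above background they were 3579 and 3672, and fewer genes were tested. A list's count under such a setting is to be set beside these totals. For a single gene the smallest P that an exact permutation of these 4 arrays allows is 0.333 (two-sided), and the calls therefore depend on the spread that limma shares across genes.

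**Figure D1:**
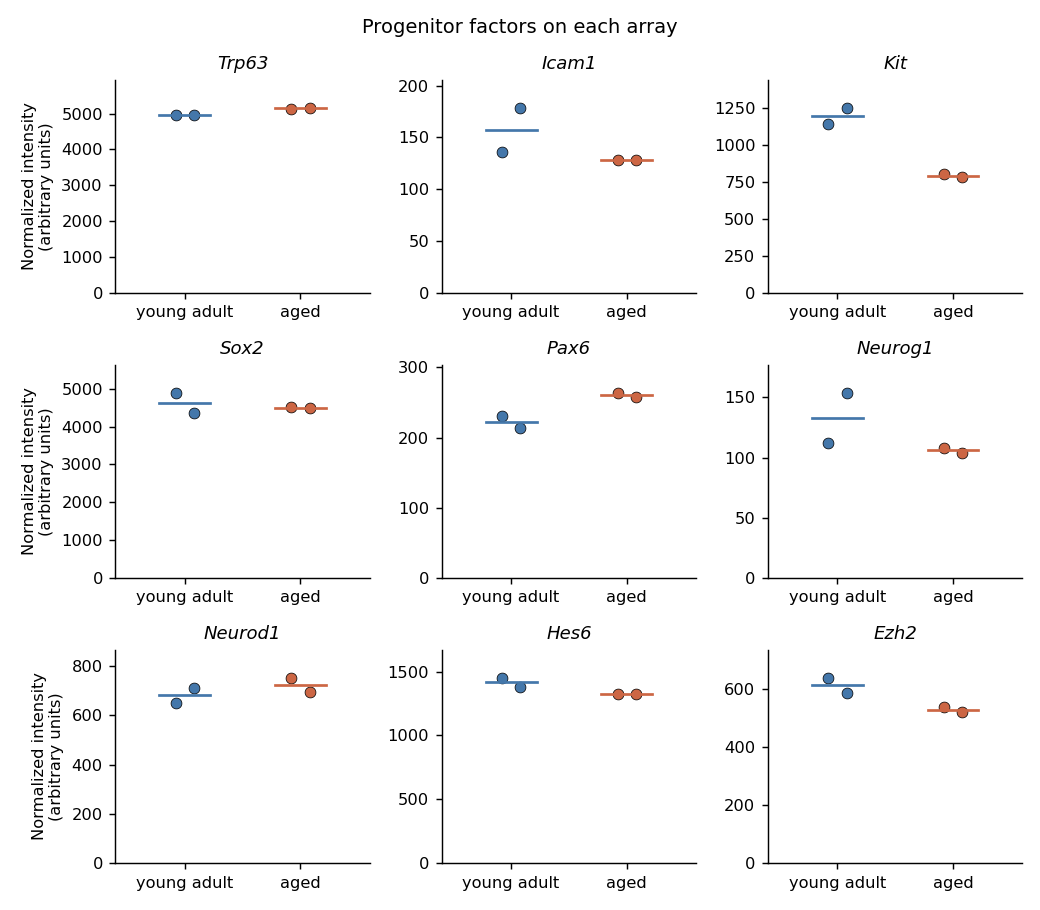
Normalized intensity (arbitrary units, linear axis from 0) of each of the 9 genes on the 2 young adult and 2 aged arrays; points are arrays and bars are means. The aged *Kit* arrays, at 801 and 779, lie well below the young adult arrays, at 1138 and 1250, while the *Sox2* and *Neurod1* arrays overlap.

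Of the horizontal basal cell factors, *Trp63* differed little between the ages in RNA of the whole mucosa. Its intensities were 4964 and 4969 in young adult and 5120 and 5168 in aged samples. The aged arrays were both higher, but the log2 fold change was 0.05 (SE 0.074, 95% interval -0.17 to 0.27) with an FDR of 0.802 in limma's test. That interval runs from 0.889 to 1.21 times the young adult level. Its 2 probes, for different transcript accessions, had log2 fold changes of 0.18 and -0.07, and neither passed the test.

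*Icam1* was dim, at 136 and 179 in young adult and 128 and 128 in aged samples. The aged arrays were the lower ones, and young adult array 2 stood above the other 3. The log2 fold change was -0.29 (SE 0.17, 95% interval -0.80 to 0.22) with an FDR of 0.571 by limma. Without young adult array 2 it was -0.087 (FDR 0.773).

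Of 8 other genes of horizontal basal cells, 3 fell in aged mice and 0 rose. All 8 had log2 fold changes below 0, with a median of -0.37, and 6 had an unadjusted P below 0.05. The count lower was 2 with either scaling to the 75th percentile and 6 to 8 with an offset of 50, the quantile normalized processed signal, only probes well above background or an intensity trend. *Krt15*, a basal keratin, was 9600 and 9701 in young adult and 5487 and 5415 in aged samples, a log2 fold change of -0.82 (FDR 0.178 by limma). *Itga6*, a laminin receptor subunit, had -0.61 (FDR 0.209), and *Krt5*, a keratin of basal cells, had -0.49 (FDR 0.216). *Krt14*, the partner of *Krt5*, had -0.30 (FDR 0.313) and did not pass. Keratins and integrins are also made by basal cells of respiratory epithelium, which was not separated here for these genes or for *Trp63*. Whether these genes differed from *Trp63* was not tested.

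*Kit* fell in aged mice. Its intensities were 1138 and 1250 in young adult and 801 and 779 in aged samples. Both aged arrays were below both young adult arrays, and the means were 1194 ± 79.6 and 790 ± 15.3 (SD, n = 2 pools each). The log2 fold change was -0.60 (SE 0.092, 95% interval -0.87 to -0.32) with an FDR of 0.216 by limma, which is 1.51-fold lower. On the processed signal scaled to the 75th percentile the FDR was 0.272, and the call was lost. With the replicate number as a block the FDR was 0.433, the smallest of any gene there, and every gene's call was lost. With any one array left out the log2 fold change was -0.66 to -0.53, and every gene's call was again lost. The block and the left-out arrays therefore show nothing particular to *Kit*. Under the other processing the call was kept, with FDRs from 0.00577 (intensity trend) to 0.233 (75th percentile scaling). On the slide that held one array of each age the log2 difference was -0.51. *Kit* had 1 probe, so no other probe of it could be compared.

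**Figure D2:**
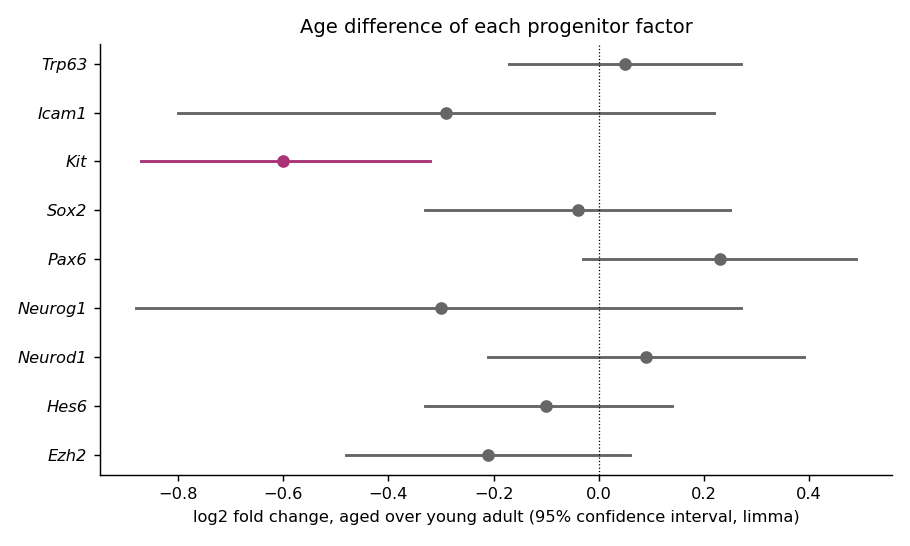
Log2 fold change (aged over young adult) of each gene with its 95% confidence interval from limma; the coloured gene is called and the grey ones are not. The *Kit* interval, -0.87 to -0.32, lies below 0, and the other 8 intervals include 0.

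Among the genes of *Kit* signalling, 1 of 12 fell and 0 rose, with a median log2 fold change of -0.12. The one that fell was *Stat5b*, a transcription factor activated by cytokine and growth factor receptors, with a log2 fold change of -0.43 (FDR 0.234 by limma), and with either scaling to the 75th percentile the list had 0 called genes. *Kitl*, which encodes the ligand stem cell factor, was 398 and 376 in young adult and 323 and 350 in aged samples, a log2 fold change of -0.20 (FDR 0.479). Mast cells and melanocytes also carry *Kit*. Of 8 mast cell markers measured, limma called 0, with 0 at an unadjusted P below 0.05, their median was 0.07, and their summed intensity was 3457 to 3482 in young adult and 3175 in both aged samples. *Hdc*, which encodes histidine decarboxylase and was in the planned list, made the sum lower. Without it, which was not planned, the other 7 markers summed to 900 and 959 in young adult and 969 and 962 in aged samples. Under other processing at most 1 mast cell marker was called in either direction. Of 6 melanocyte markers limma called 0, with 2 at an unadjusted P below 0.05, and the sum was 1074 to 1184 and 1165 to 1175. In both lists 1 marker, *Mrgprb2* and *Tyrp1*, was below background on every array. The part of mast cells and melanocytes in the *Kit* values was not tested.

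*Icam1* is also made by blood vessels and leukocytes. Of 9 endothelial markers 6 fell (4 with either scaling to the 75th percentile, and up to 9 under other processing), and their summed intensity was 21041 to 21278 in young adult and 14194 to 14205 in aged samples. The 5 with the largest falls were *Tie1*, *Emcn*, *Eng*, *Vwf* and *Kdr*, with log2 fold changes from -0.84 to -0.59. Of 7 leukocyte markers 1 fell, *Cd68*, at -0.78, and of the 3 integrin genes for *Icam1* ligands 1 fell, *Itgb2*, at -0.75. Their part in the *Icam1* values was not tested.

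*Sox2* was 4900 and 4374 in young adult and 4513 and 4485 in aged samples, and both aged arrays lay between the young adult ones. The log2 fold change was -0.04 (SE 0.097, 95% interval -0.33 to 0.25) with an FDR of 0.882 by limma.

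*Pax6* was 231 and 213 in young adult and 264 and 258 in aged samples, both aged arrays being the higher. The log2 fold change was 0.23 (SE 0.087, 95% interval -0.03 to 0.49) with an FDR of 0.415 by limma, and it was not called. This value averages 4 probes with unlike log2 fold changes, and the difference between the probes was not tested. One probe read 1098 and 1094 in young adult and 1467 and 1494 in aged samples, a log2 fold change of 0.43 (FDR 0.223 over all probes), and was called higher, where 4.50% of all probes were called and 1.84% were called higher. A second read 418 and 422 against 598 and 546, a log2 fold change of 0.44 (FDR 0.251), which just missed the limit. The other probes had -0.02 and 0.07 and were dim, and the last was well above background on 1 array of each age. Keeping only probes well above background left out the last probe but not the one at -0.02. *Pax6* then had a log2 fold change of 0.29 (FDR 0.0969). With its most intense probe alone it had 0.43 (FDR 0.216), and it was called higher under both.

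*Pax6os1*, a noncoding gene named for the strand opposite *Pax6*, was looked at after its values were seen. It was 90.6 and 95.9 in young adult and 152 and 156 in aged samples, without overlap. It rose, with a log2 fold change of 0.72 (SE 0.081, FDR 0.188 by limma). This call was lost with the replicate number as a block (FDR 0.433), as was every gene's call. With any one array left out the log2 fold change was 0.69 to 0.76, and every gene's call was again lost. *Sox2ot*, the noncoding gene that overlaps *Sox2*, was chosen in the same way and had a log2 fold change of -0.15 (FDR 0.671). This averages 2 probes, and the dimmer was well above background on no array. The brighter read 313 and 306 in young adult and 273 and 261 in aged samples, without overlap. Its log2 fold change was -0.21 (FDR 0.4 by limma over all probes).

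**Figure D3:**
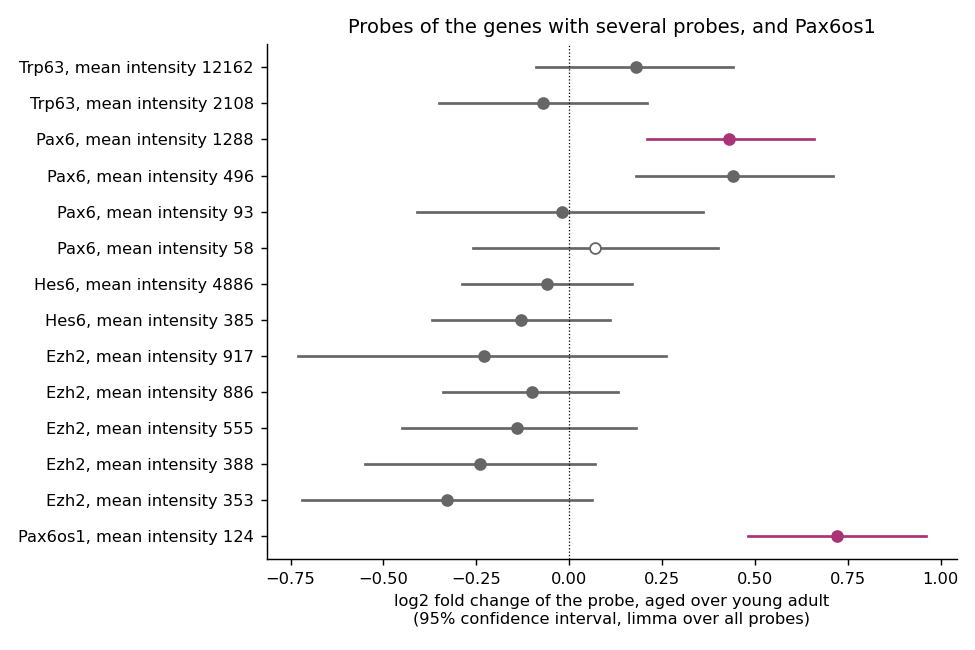
Log2 fold change (aged over young adult) of each probe, with its 95% confidence interval from limma over all probes, for the 4 genes with several probes and for *Pax6os1*; coloured probes are called and the open point was not above background on every array. Of the *Pax6* probes, those at 0.43 and 0.44 lie apart from those at -0.02 and 0.07, though their intervals overlap, and all *Ezh2* probes lie below 0.

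Of the factors of neuronal precursors, *Neurog1* was dim, at 112 and 154 in young adult and 108 and 104 in aged samples. The aged arrays were lower, with a log2 fold change of -0.30 (FDR 0.588 by limma), and young adult array 2 carried most of it, since without that array the value was -0.074. *Neurod1*, which acts after *Neurog1*, was 649 and 713 in young adult and 753 and 694 in aged samples. The ages overlapped, and the log2 fold change was 0.09 (FDR 0.752). *Hes6* was 1453 and 1382 against 1326 and 1323, a log2 fold change of -0.10 (FDR 0.656).

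Of 16 other genes of globose basal cells and precursors, limma called 0, with 4 at an unadjusted P below 0.05, and the median log2 fold change was 0.08. The counts depended on the processing: 4 were called higher and 3 lower with only probes well above background and also with an intensity trend, 4 and 1 on the quantile normalized processed signal, 2 and 2 with an offset of 50, and 2 and 0 with the most intense probe per gene. *Lgr5*, a receptor of dividing globose basal cells, was 976 and 972 in young adult and 1251 and 1268 in aged samples, with a log2 fold change of 0.37 (FDR 0.258 by limma). *Insm1*, a zinc finger factor of late progenitors, had -0.18 (FDR 0.442). The first was above 0 and the second below it, and neither passed in the test as reported.

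Of 22 Notch pathway genes limma called 0, with 2 at an unadjusted P below 0.05 and a median log2 fold change of -0.10. Lower calls numbered 5 with only probes well above background, 3 with the trend, 3 on the quantile normalized processed signal and 2 with an offset of 50. Over all genes the lower calls also rose under each of these settings, from 1063 to between 2346 and 3672. Notch signalling holds progenitors undifferentiated through *Hes1* and *Hes5*. The receptor *Notch1* had a log2 fold change of 0.07, the ligand *Dll1* -0.10, and the targets *Hes1* and *Hes5* -0.17 and -0.27. Of 25 relatives of the 9 genes in their families limma called 0, with 4 at an unadjusted P below 0.05, and 6 of these were below background on every array.

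*Ezh2* was 640 and 588 in young adult and 538 and 522 in aged samples, without overlap. The log2 fold change was -0.21 (95% interval -0.48 to 0.06) with an FDR of 0.455 by limma, and it was not called. All 5 of its probes were below 0, from -0.33 to -0.10, and none passed. It was called lower with only probes well above background (FDR 0.194) and with an intensity trend in the fit (FDR 0.239). All 5 of its probes were kept in the former, and its log2 fold change was -0.21 under both. Of 12 other PRC2 and demethylase genes limma called 0, with 0 at an unadjusted P below 0.05 and a median log2 fold change of 0.00. The PRC2 subunits *Eed* and *Suz12* had log2 fold changes of 0.09 and -0.03, and *Ezh1*, the other methyltransferase, had 0.12.

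Of 20 genes of cell division, 6 fell in aged mice and 0 rose. The median log2 fold change was -0.45, and 14 had an unadjusted P below 0.05. The count lower was 12 on the quantile normalized processed signal, 13 with an offset of 50 or an intensity trend, and 16 with only probes well above background. *Mki67* was 1403 and 1327 in young adult and 940 and 913 in aged samples, a log2 fold change of -0.56 (FDR 0.210 by limma). *Ccnb2*, a mitotic cyclin, had -0.73, *Birc5*, which encodes survivin, -0.64, *Top2a*, a topoisomerase, -0.61, and *Cdc20*, an activator of the anaphase-promoting complex, -0.54. The part of these genes in the *Kit* and *Ezh2* values was not tested. Of 10 immature ORN markers 1 fell, *Dpysl3*, at -0.40, and *Gap43*, a growth cone protein, had -0.41 and narrowly missed the FDR limit. The median of these markers was -0.28, with 9 below 0 and 6 at an unadjusted P below 0.05 by limma. The 10 mature ORN markers were all above 0, with a median of 0.2 and 3 at an unadjusted P below 0.05.

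**Figure D4:**
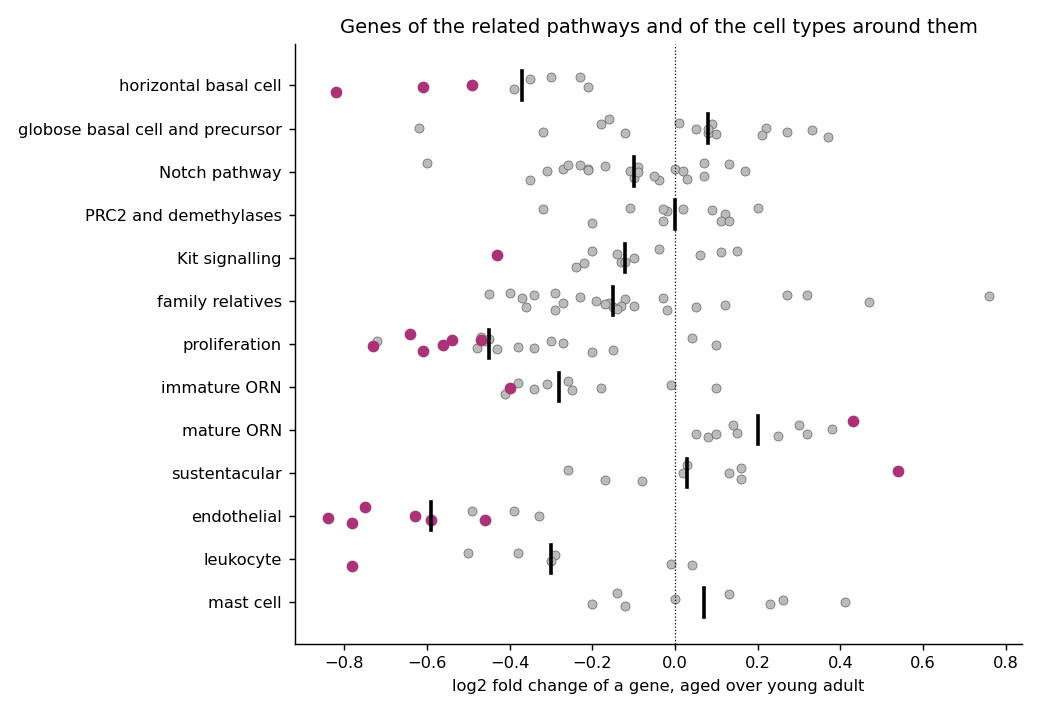
Log2 fold change (aged over young adult) of the genes of each list; coloured points are called, grey points are not, black bars are medians, and points are spread vertically only to separate them. The called genes lie below 0 in the horizontal basal cell, proliferation and endothelial lists, with medians of -0.37, -0.45 and -0.59, and the precursor and PRC2 lists have none.

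The remaining lists give the cells around the progenitors. Of 5 Bowman's gland markers 2 rose, *Bpifb9b* at 2.17 and *Ascl3* at 0.59. Of 6 respiratory markers 1 fell, *Muc5ac*, at -2.10. Of 6 ensheathing glia markers 3 fell, among them *Fabp7* at -0.62 and *Ngfr* at -0.47, and of 8 brain neuron markers limma called 0, with 1 at an unadjusted P below 0.05.

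**Figure D5:**
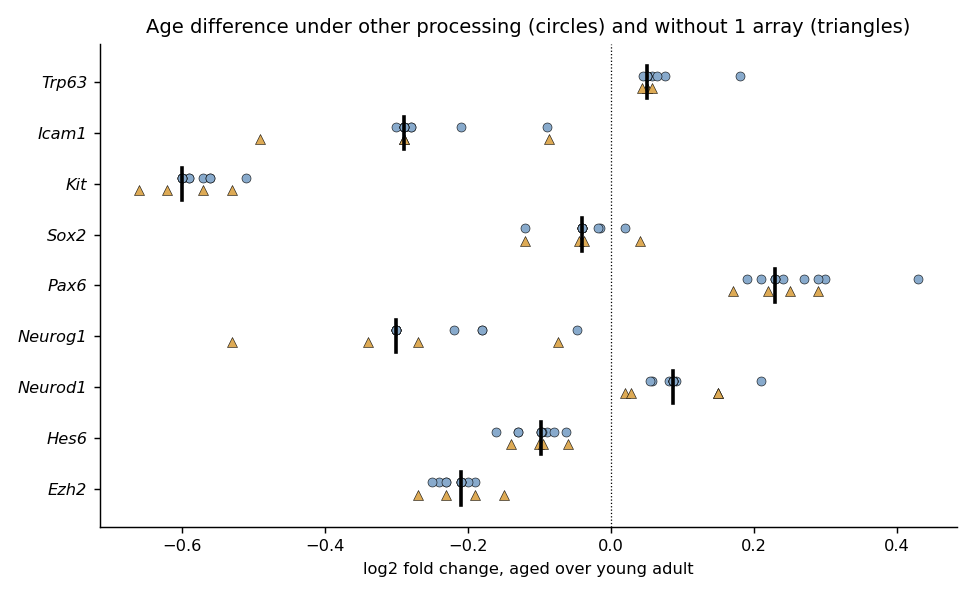
Log2 fold change (aged over young adult) of each gene under other processing and on the shared slide (circles) and with 1 array left out (triangles); black bars are the values reported. *Kit* stays between -0.66 and -0.51, and *Sox2* crosses 0, from -0.12 to 0.04.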

How the data were processed

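The authors hybridized Cy3-labelled RNA to 4 one-colour Agilent arrays and deposited, for each spot, a median intensity, a local background and quality flags (Feature Extraction 11.0.1.1), with no normalization between arrays. Their methods name limma, R 3.2.1, quantile normalization and the P and FDR limits, but no background method. Here the median intensity was background-corrected with limma 3.58.1 (R 4.3.3) using normexp, offset 0, control and flagged spots (88 to 118 per array) were left out, spots of a probe were averaged, arrays were quantile normalized, and log2 values were averaged over the probes of each gene. Accessions were matched to RefSeq symbols for 32994 of 56605 probes. Ages were compared with lmFit and eBayes, without covariates. The well above background share was 63.1 to 76.8% of spots, no spot was saturated, and the number of arrays limits the precision. On simulated arrays, 149 of 200 genes changed 2-fold were called, with 67 unchanged genes. The changed genes were drawn from those with a mean intensity of at least 100. Smaller changes, such as the 1.51-fold of *Kit*, were not simulated. Young adult array 1 and aged array 1 shared a slide. The members and gene lists were chosen with earlier results of these data known. Named genes were the members, a fixed set of list genes, and up to 5 called genes per list with the largest change. Some genes that this rule names are not reported here. Of the promoter motifs, GGGCGG and CCAAT were added after the promoters had been read. Alternatives covered background, scaling, dim probes, flagged spots, probe choice, an intensity trend, the replicate block, the shared slide and each array left out.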

Additional observations from a re-analysis of the deposited data

How the results depend on the processing

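The counts of called genes moved with the processing. Against 754 genes higher and 1063 lower in aged mice, there were 2107 and 2478 with an offset of 50, 2030 and 2346 on the quantile normalized processed signal, 3579 and 3672 with only probes well above background, and 3607 and 3517 with an intensity trend. Keeping only probes well above background left fewer genes to test, so its counts are not on the same base as the others. Of the 9 members, 1 was higher and 2 were lower with only probes well above background, 2 were lower with the trend, 1 was higher with the most intense probe per gene, and 0 were lower on the processed signal scaled to the 75th percentile. With the replicate number as a block, 0 genes were called in either direction and 0 members were lower, and all of the lists' calls were lost. The number 1 arrays also share a slide, and the number 2 arrays lie on slides of their own. Same-numbered arrays did not deviate together from the means of their ages (correlation -0.0779). Over all genes, arrays correlated at 0.987 within each age and at 0.982 to 0.989 between ages. Median local background was 67 (young adult) and 63 (aged) on the shared slide, and 32 and 39 on the other slides. With any of the 4 arrays left out, the lone array of its age being assumed to vary like the others, 0 genes were called higher, 0 lower, and 0 members lower, so that each list had 0 calls. *Sox2* turned to 0.02 on the processed signal scaled to the 75th percentile and to 0.04 without young adult array 1, in a range of -0.12 to 0.04 over the arrays left out. On the shared slide *Neurod1* had 0.21. The slide as a random block could not be fitted with 4 arrays. The GC box and CCAAT box were chosen after seeing the data. The 2 arrays per age, and for *Icam1*, *Neurog1* and a *Pax6* probe the signal over background, limit what could be shown.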
